A study of Sus scrofa with 6 samples.

Results

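The HOX genes described here are 10 of the 28 HOX symbols that carry an ID among 25322 pig (Sus scrofa) gene IDs. They are HOXA2, HOXA3, HOXA5 and HOXA7 of cluster A, HOXB3 of cluster B, HOXC6 of cluster C, and HOXD1, HOXD3, HOXD4 and HOXD9 of cluster D. They were chosen from the HOX family with their levels in these tissues and breeds already known, so their differences between tissues and between breeds within a tissue are given as descriptions, without a p-value. RNA was sequenced from fat, skeletal muscle and liver of Korean native pigs and of Berkshire pigs, a commercial breed. Each breed and tissue has 1 library, so the 6 libraries are Korean native fat, Berkshire fat, Korean native muscle, Berkshire muscle, Korean native liver and Berkshire liver. All 6 came from untreated frozen tissue as far as the labels say, with Trizol extraction and 1 µg of total RNA per library. The labels give no age, no sex and no anatomical site for the fat or the muscle, nor do they tell if the fat, muscle and liver of a breed were taken from the same animal.

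HOX genes encode homeodomain transcription factors and lie in 4 clusters in mammals. Within a cluster, genes at the low-numbered end are active towards the head of the embryo, and genes at the high-numbered end towards the trunk, limbs and tail. Genes of the same number in different clusters are paralogs and form a paralog group. In adult mouse and human tissue, fibroblasts, fat precursors and muscle stem cells keep a HOX pattern that differs with the body site they came from, and fat depots are known to differ in it.

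Between 5897407 and 7912093 reads were counted on genes in a library. Levels are CPM, counts scaled to a common library total and adjusted by TMM, a method that sets the bulk of genes equal between libraries. A count of 3, used as the floor, corresponds to 0.294 to 0.692 CPM. No fold is given where both sides are at or under the floor. A side at 0 counts is set to the floor, while a side with 1 to 3 counts is used as it is. Bracketed intervals on counts are exact at 95% and cover counting error only. The tissue labels were checked against marker lists: all 10 hepatocyte markers were lower in fat and in muscle than in liver, all 6 adipocyte markers tested were higher in fat than in muscle and in liver, and all 5 skeletal muscle markers were lower in fat than in muscle and higher in muscle than in liver, by edgeR's quasi-likelihood test. Over all genes tested, between 6.43% and 18.6% were called in each of these directions. These samples are bulk tissue, in which fewer cells of a type and less RNA per cell cannot be told apart.

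The 10 genes together were most abundant in fat and lowest in liver, and the 2 muscle libraries lay far apart. Their summed level was 123 CPM in Korean native fat and 199 in Berkshire fat. It was 119 CPM in Korean native muscle and 47.8 in Berkshire muscle, and 9.11 CPM in Korean native liver and 12.8 in Berkshire liver. Korean native muscle was thus close to Korean native fat, Berkshire muscle was below both fat libraries, and both liver libraries were the lowest. The means were 161 ± 53.6 CPM in fat, 83.5 ± 50.5 in muscle and 11.0 ± 2.61 in liver (SD over the breeds, n = 2 each). The fat and muscle means differ by less than the sum of their SDs, and HOXA5 alone carried 57.3 of the CPM in Korean native fat and 128 in Berkshire fat. With HOXA5 left out, the fat mean was 68.2 ± 3.91 CPM, the muscle mean 72.0 ± 37.1 and the liver mean 7.91 ± 0.410.

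**Figure D1:**
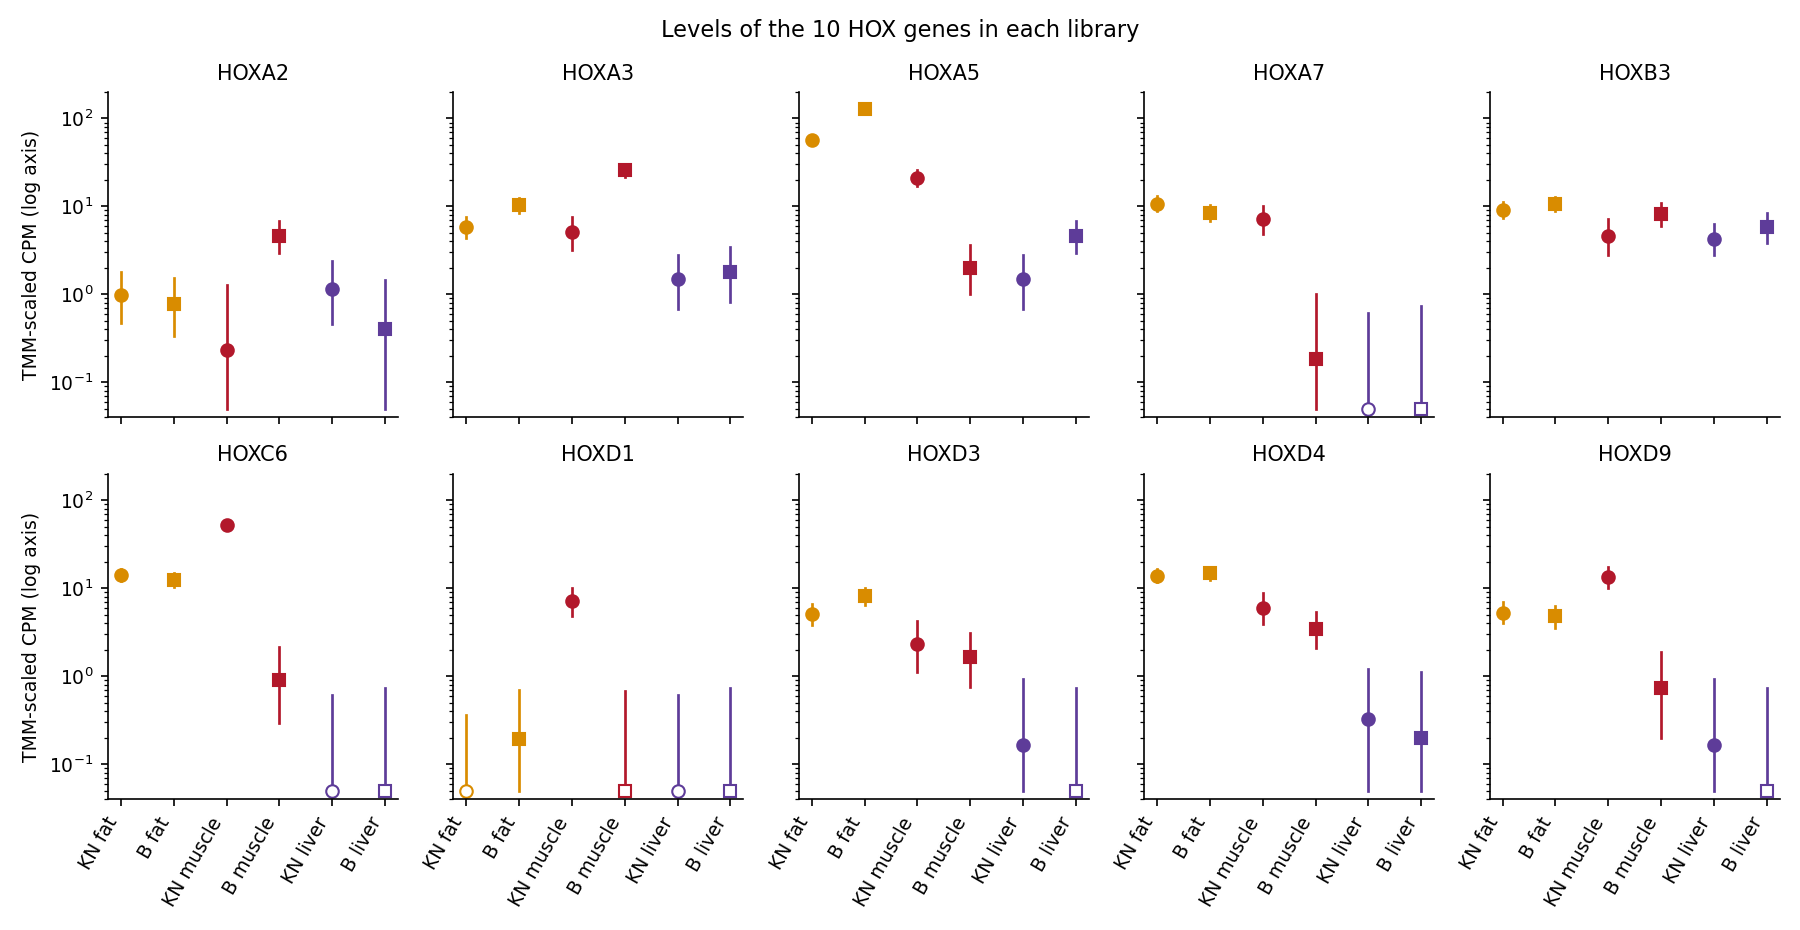
Level of each of the 10 HOX genes in the 6 libraries, in TMM-scaled CPM on a log axis, with circles for Korean native and squares for Berkshire. Bars are exact 95% Poisson intervals and open symbols mark a count of 0, drawn at the bottom of the axis. Fat symbols of a gene lie furthest apart for HOXD1 (0 counts in Korean native and 2 in Berkshire) and HOXA5 (57.3 and 128 CPM). Muscle symbols lie far apart for HOXC6 (52.4 CPM in Korean native and 0.915 in Berkshire) and for HOXA7 (7.15 and 0.183 CPM).

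HOXA5 was far more abundant in fat than in muscle or liver. HOXA5, which patterns the neck-to-thorax skeleton and the lung in mouse, had 57.3 CPM in Korean native fat and 128 in Berkshire fat, 21.0 CPM in Korean native muscle and 2.01 in Berkshire muscle, and 1.49 CPM in Korean native liver and 4.60 in Berkshire liver. Both fat libraries lay above both muscle libraries, and Berkshire muscle fell within the range of the liver libraries. The fat mean of 92.4 ± 49.7 CPM was 8.03-fold the muscle mean of 11.5 ± 13.4 and 30.3-fold the liver mean of 3.05 ± 2.20 (SD, n = 2 each). HOXD4, its neighbour in paralog number and a gene of the neck vertebrae in mouse, had 14.0 and 14.9 CPM in Korean native and Berkshire fat, 6.00 and 3.48 CPM in the muscle of the same breeds, and 0.331 and 0.200 CPM in their livers. The 3 tissues did not overlap, and the fat mean of HOXD4 was 3.05-fold the muscle mean. Its 294 counts in fat against 3 in liver gave a ratio of 53.1 (18.0 to 259).

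The genes of paralog groups 1 to 3, which act in the hindbrain, the pharyngeal arches and the upper neck of the embryo, did not share one tissue pattern. HOXB3, a hindbrain gene in mouse, was the only one of the 10 with at least 20 counts in every library, with 9.17 CPM in Korean native fat and 10.7 in Berkshire fat, 4.61 CPM in Korean native muscle and 8.24 in Berkshire muscle, and 4.31 CPM in Korean native liver and 5.80 in Berkshire liver. Its fat libraries were above the other 4, while its muscle and liver libraries overlapped (6.42 ± 2.56 CPM in muscle and 5.06 ± 1.06 in liver, SD, n = 2 each). HOXD3, which shapes the first neck vertebrae in mouse, had 5.13 and 8.23 CPM in Korean native and Berkshire fat, 2.31 and 1.65 CPM in muscle of these breeds, and 1 count and 0 counts in their livers. Fat, muscle and liver did not overlap for HOXD3, and the fat mean was 3.38-fold the muscle mean. HOXA3, needed for the thymus and parathyroid in mouse, had 5.82 CPM in Korean native fat and 10.3 in Berkshire fat, 5.07 CPM in Korean native muscle and 26.0 in Berkshire muscle, and 1.49 CPM in Korean native liver and 1.80 in Berkshire liver. Berkshire muscle was its highest library, so fat and muscle overlapped, and both tissues lay above liver.

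HOXA2 and HOXD1 were the rarest of the set, and neither passed the filter on low counts. HOXA2, which patterns the second pharyngeal arch in mouse, had 10 counts in Korean native fat, 8 in Berkshire fat, 1 in Korean native muscle, 25 in Berkshire muscle, 7 in Korean native liver and 2 in Berkshire liver. Berkshire muscle alone stood clear of the others, at 4.58 CPM against at most 1.16 CPM elsewhere. HOXD1, known in mouse for its part in the wiring of pain-sensing neurons, had 31 counts in Korean native muscle (7.15 CPM), 2 in Berkshire fat and 0 in the other 4 libraries. Its muscle mean of 3.58 ± 5.06 CPM (SD, n = 2) therefore rests on that library.

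The genes of the set in paralog groups 6 to 9, which pattern the thorax, lower back and limbs in mouse, are HOXC6, HOXA7 and HOXD9. All were present in fat of both breeds, at 0 counts or 1 count in each liver library, and split between the muscle libraries. HOXC6 had 14.2 CPM in Korean native fat and 12.6 in Berkshire fat, 52.4 CPM in Korean native muscle and 0.915 in Berkshire muscle, and 0 counts in both livers. HOXA7 had 10.8 CPM in Korean native fat and 8.52 in Berkshire fat, 7.15 CPM in Korean native muscle and 0.183 in Berkshire muscle, and again 0 counts in both livers. HOXD9 had 5.32 CPM in Korean native fat and 4.80 in Berkshire fat, 13.4 CPM in Korean native muscle and 0.732 in Berkshire muscle, with 1 count in Korean native liver and 0 in Berkshire liver. For HOXC6 and HOXD9, Korean native muscle was the highest library and Berkshire muscle was below both fat libraries. Against the floor of 3 counts per library in liver, the fat mean was at least 24.5-fold higher for HOXC6 and at least 17.6-fold higher for HOXA7. The muscle mean of HOXC6, which rests on Korean native muscle, was at least 48.5-fold higher. The 103 counts of HOXD9 in fat against 1 in liver gave a ratio of 55.8 (9.80 to 2227).

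Counted over the set, 8 of the 10 genes had both fat libraries above both liver libraries, 5 had both fat libraries above both muscle libraries, and 6 had both muscle libraries above both liver libraries. No gene of the set had both libraries of the first tissue below those of the second, and the others overlapped. Among the 18959 IDs with a count in any library, both libraries lay above both others for 28.6% in fat against liver, 28.5% in fat against muscle and 28.3% in muscle against liver. Over all 13810 genes tested with edgeR at an adjusted p under 0.05, 13.5% were higher and 15.2% lower in fat against liver, 6.43% were higher and 9.95% lower in fat against muscle, and 17.4% were higher and 18.6% lower in muscle against liver. Since the genes were chosen with these levels known, nothing is read from their counts beside these shares. The order of fat and muscle means is relative to the scaling. Total counts in place of TMM shifted all genes together, to a median log2 difference of fat over muscle of 0.98 from 0.05, and on that scale the ratio of the fat mean to the muscle mean was 1.07 for HOXC6 (0.504 with TMM) and 1.51 for HOXD9 (0.717 with TMM). By total counts 87.3% of the calls between fat and muscle were higher in fat, against 39.3% with TMM, and in fat against liver 83.4% were higher, against 47.0% with TMM.

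The muscle libraries of the breeds differed in which HOX genes were read. With 1 library of each breed there is no test of this difference, and only counting intervals can be given. Korean native muscle exceeded Berkshire muscle in HOXC6 by a ratio of 57.2 (24.2 to 178), from 227 and 5 counts. The ratio was 39.1 (6.51 to 1592) for HOXA7, from 31 and 1 counts, 18.3 (6.77 to 69.3) for HOXD9, from 58 and 4 counts, and 10.4 (5.56 to 21.6) for HOXA5, from 91 and 11 counts. HOXD1, with 31 counts in Korean native muscle and 0 in Berkshire muscle, was at least 13.0-fold higher in Korean native muscle against the floor of 3 counts, and the exact interval of its ratio begins at 9.97. These 5 genes come from clusters A, C and D, and all but HOXD1 belong to groups 5 to 9.

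HOXA2, HOXA3 and HOXB3 stood the other way round in muscle. HOXA3 had 22 counts in Korean native muscle and 142 in Berkshire muscle, a ratio of 0.195 (0.119 to 0.307). HOXA2 had 1 and 25 counts in these libraries, a ratio of 0.0504 (0.00123 to 0.308), and HOXB3 had 20 and 45 counts, a ratio of 0.560 (0.313 to 0.968). HOXD3 and HOXD4 lay between, with ratios of 1.40 (0.511 to 3.89) and 1.72 (0.918 to 3.30), both intervals including 1. Of the 10 genes, all with at least 10 counts in 1 muscle library, 5 were at least 4-fold higher in Korean native muscle and 2 at least 4-fold lower. Over all genes with that many counts in muscle, 1.70% were at least 4-fold higher and 2.47% at least 4-fold lower. The genes were picked with these values in view, so this is a description of the set.

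**Figure D2:**
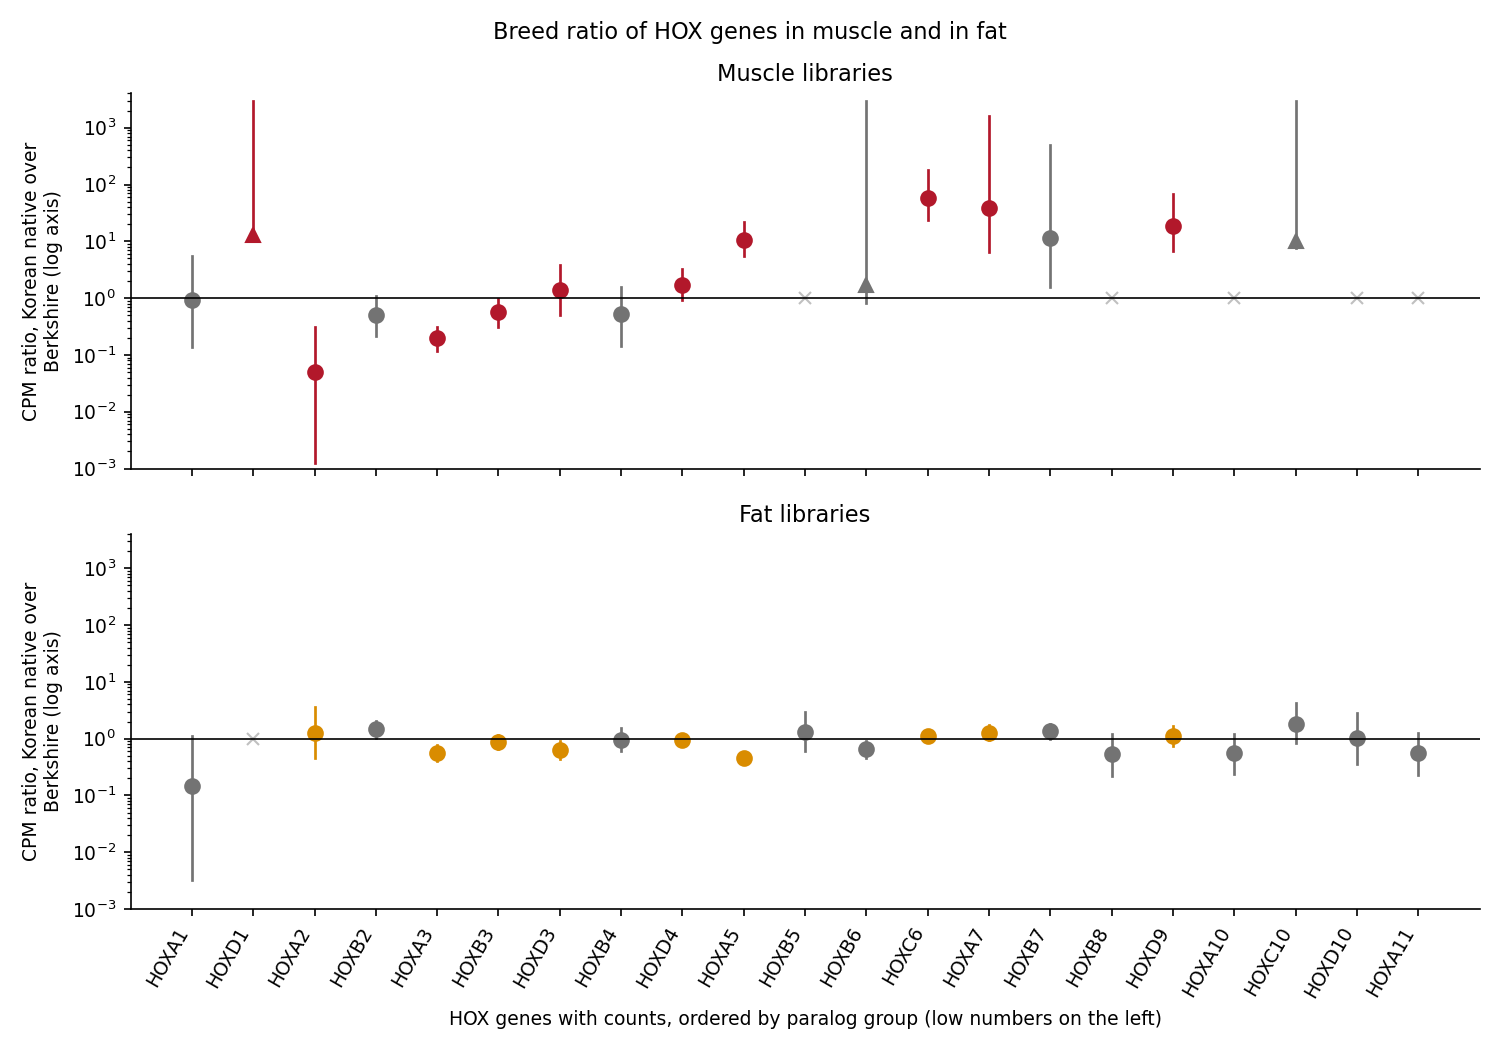
Ratio of Korean native to Berkshire CPM for each HOX gene, ordered by paralog group, in muscle (top) and in fat (bottom), on a log axis. Coloured points are the 10 genes described and grey points other HOX genes, bars are 95% counting intervals cut at the axis, triangles are lower bounds against the floor of 3 counts, and crosses mark genes with at most 3 counts in both libraries. In muscle the ratio is 0.0504 for HOXA2 and 0.195 for HOXA3 but 57.2 for HOXC6 and 18.3 for HOXD9, while in fat the ratios of the 9 genes described that have one lie between 0.449 and 1.27.

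Fat of the same breeds did not show this split. None of the 9 genes with at least 10 counts in 1 fat library differed 4-fold between the breeds. Of all such genes, 1.83% were at least 4-fold higher in Korean native fat and 1.53% at least 4-fold lower. These shares are small and the genes were picked with these values in view, so nothing is read from this count. HOXC6 had a ratio of Korean native to Berkshire fat of 1.12 (0.880 to 1.44), HOXA7 of 1.27 (0.952 to 1.71) and HOXD9 of 1.11 (0.740 to 1.67). HOXD4, with 142 counts in Korean native fat and 152 in Berkshire fat, had a ratio of 0.941 (0.743 to 1.19). The genes whose interval in fat excluded 1 were HOXA5 at 0.449 (0.407 to 0.496), HOXA3 at 0.566 (0.404 to 0.786) and HOXD3 at 0.623 (0.432 to 0.891), all lower in Korean native fat. In liver only HOXA5 and HOXB3 reached 10 counts in a library, with ratios of 0.324 (0.132 to 0.727) and 0.743 (0.420 to 1.31). Neither was 4-fold apart, and over all genes with that many counts in liver 1.81% were at least 4-fold higher in Korean native liver and 1.93% at least 4-fold lower.

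Set against fat of their own breed, the same 2 muscle libraries gave ratios that differ between the breeds, which restates their difference on the scale of fat. The summed level of the 10 genes was 1.03-fold in fat over muscle in Korean native pigs (0.928 to 1.14) and 4.16-fold in Berkshire pigs (3.65 to 4.75). By total counts these ratios were 2.13 in Korean native and 7.33 in Berkshire pigs. HOXC6 had a ratio of fat to muscle of 0.271 (0.219 to 0.336) in Korean native pigs and of 13.8 (5.77 to 43.2) in Berkshire pigs. HOXD9 had 0.398 (0.270 to 0.587) in Korean native pigs and 6.55 (2.40 to 25.0) in Berkshire pigs, and by total counts its Korean native ratio was 0.822. HOXA3 ran the other way, with 1.15 (0.692 to 1.96) in Korean native pigs and 0.396 (0.304 to 0.513) in Berkshire pigs. The difference between the breeds in this ratio was not tested, because each ratio comes from 2 libraries.

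A breed difference common to the 3 tissues was fitted with edgeR's quasi-likelihood test over all 6 libraries, and none of the 8 genes that passed the low-count filter was called by edgeR, DESeq2 or limma-voom. HOXA3 was the 1 gene of the 8 with an unadjusted edgeR p under 0.05. Over all genes 15 of 13810 (0.109%) were called, 1103 had an unadjusted p under 0.05, and DESeq2 called 94. The genes were chosen with their breed levels known, so these counts and the values that follow are a description and support nothing. The fitted log2 difference of Korean native over Berkshire was 2.37 ± 1.28 (SE) for HOXC6, 1.75 ± 0.860 for HOXD9 and 1.62 ± 0.913 for HOXA7. HOXA3 had -1.27 ± 0.446, and the other 4 genes lay between -0.47 for HOXB3 and 0.30 for HOXD4. With either fat library left out, the value of HOXC6 was 5.76 and it passed the edgeR threshold, but with no HOXC6 count in liver that value is the difference of 1 muscle library from the other, already given above. With 2 residual degrees of freedom, a breed difference that changes between tissues counts as spread in this fit.

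As shares of all reads counted on the 28 HOX IDs, the libraries differed in the paralog groups that made up most of the signal, with the group boundaries drawn after the values were seen. Groups 1 to 3 made up 18.3% (16.4 to 20.2) of HOX counts in Korean native fat, 15.4% (14.0 to 16.9) in Berkshire fat and 16.8% (13.9 to 20.2) in Korean native muscle. They made up 82.5% (77.8 to 86.6) in Berkshire muscle, 65.3% (54.8 to 74.7) in Korean native liver and 57.9% (48.0 to 67.4) in Berkshire liver. Berkshire muscle thus had a higher share of low-numbered HOX counts than any other library, and Korean native muscle a share like that of fat. Groups 6 to 10 made up 61.5% (57.3 to 65.5) in Korean native muscle and 3.63% (1.83 to 6.40) in Berkshire muscle, against 32.6% in Korean native fat, 20.9% in Berkshire fat, 10.5% in Korean native liver and 5.61% in Berkshire liver. Groups 4 and 5, led by HOXA5, made up 48.5% in Korean native fat and 62.9% in Berkshire fat. These shares weigh longer transcripts more, since no transcript lengths were applied, but each gene counts alike in every library. They leave out the 11 HOX symbols with no ID, among them HOXA4, HOXA6, HOXB9, HOXC4, HOXC5, HOXC8, HOXC9 and HOXD8 of groups 4 to 10.

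**Figure D3:**
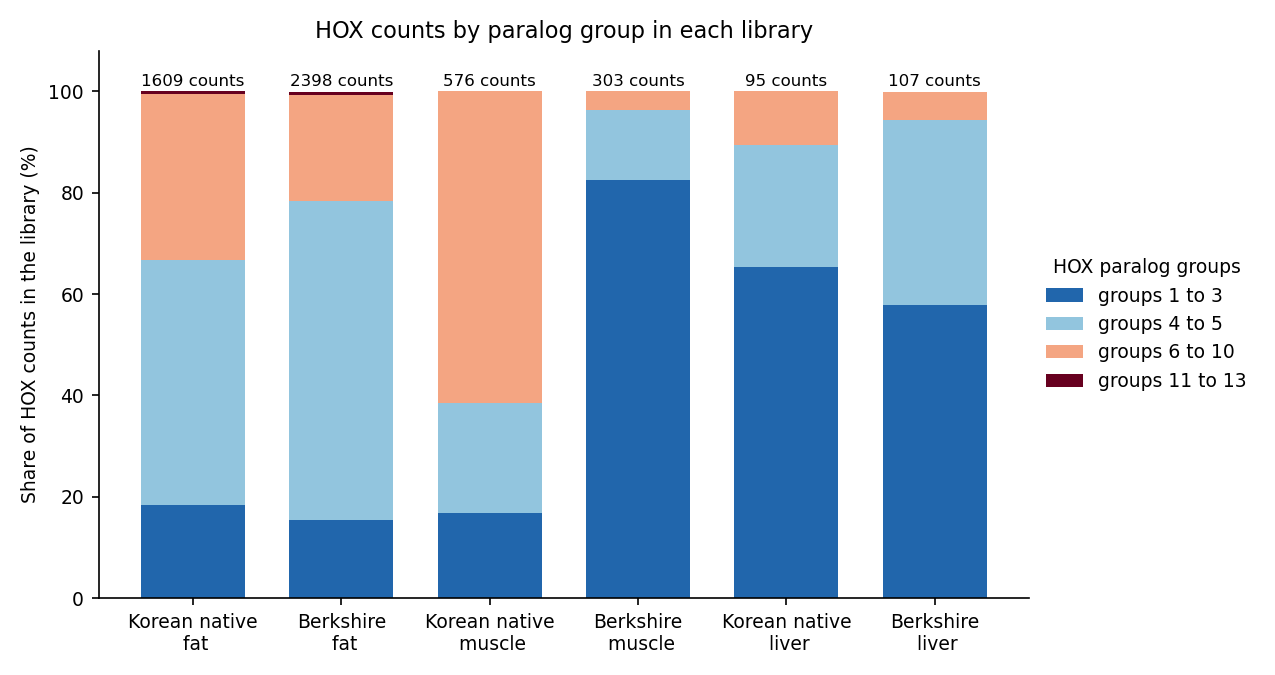
Share of the reads on all 28 HOX IDs that falls in paralog groups 1 to 3, 4 to 5, 6 to 10 and 11 to 13, in percent, for each library, with the number of HOX reads above each bar. Groups 6 to 10 fill 61.5% of the Korean native muscle bar and 3.63% of the Berkshire muscle bar, and the liver bars rest on 95 and 107 reads.

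By cluster, liver differed from the other tissues in a second way. Cluster B held 67.4% of HOX counts in Korean native liver and 66.4% in Berkshire liver, while it held 25.2% in Korean native fat, 17.3% in Berkshire fat, 9.03% in Korean native muscle and 27.4% in Berkshire muscle. Cluster C held none of the HOX counts in either liver, 43.6% in Korean native muscle and 1.65% in Berkshire muscle. It is represented by 5 IDs, none of a lower number than HOXC6, because HOXC4, HOXC5, HOXC8 and HOXC9 matched no ID. Cluster B has 9 IDs, so the cluster shares depend on which genes carry one. In liver, HOXB3 (26 counts in Korean native and 29 in Berkshire) and HOXB2 (17 and 21 counts) gave most of the cluster B reads. HOXB2, a hindbrain gene in mouse, had 7.79 and 5.39 CPM in Korean native and Berkshire fat, 2.31 and 4.58 CPM in their muscle, and 2.82 and 4.20 CPM in their livers, so its muscle and liver libraries overlapped as those of HOXB3 did.

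Of the 18 HOX IDs outside the set, 7 had enough counts to be tested and 7 had no count in any library (HOXA9, HOXB1, HOXB13, HOXC11, HOXC12, HOXC13 and HOXD12). HOXB6 and HOXB7, thoracic genes of cluster B, were higher in fat than in both other tissues. HOXB6 had 6.31 and 9.79 CPM in Korean native and Berkshire fat, 0.923 and 0 CPM in their muscle, and 0.663 and 0.600 CPM in their livers. The log2 difference of fat over muscle was 4.21 with an edgeR adjusted p of 0.024, and that of fat over liver 3.63 with an adjusted p of 0.017, and both calls were lost without Berkshire fat. HOXB7 had 103 and 77 counts in Korean native and Berkshire fat, 9 and 1 counts in their muscle, and 5 and 3 counts in their livers. Its log2 difference was 3.17 for fat over muscle with an edgeR adjusted p of 0.023, lost without either fat library, and 3.66 for fat over liver with an adjusted p of 0.0087, called in all 11 other settings.

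A few genes of groups 10 and 11 had reads in fat alone. HOXA10, HOXA11 and HOXD10, which in mouse act in the lower trunk and limbs, had 11, 10 and 9 counts in Korean native fat and 20, 18 and 9 in Berkshire fat, and none in muscle or liver. HOXA10 was higher in fat than in liver with an edgeR adjusted p of 0.038, which is at least 2.77-fold against the liver floor, and this call was lost under DESeq2, without Korean native fat and without either liver library. HOXC10, a gene of the lower back and hindlimb in mouse, had 20 counts in Korean native fat, 11 in Berkshire fat, 24 in Korean native muscle and 0 in Berkshire muscle and both livers. It stood at least 10.1-fold higher in Korean native than in Berkshire muscle against the floor of 3 counts, with an exact interval that begins at 7.58, the same way round as HOXC6 and HOXD9, and was the 1 gene past 4-fold of the 3 other HOX genes with at least 10 counts in muscle. Among the 7 tested, edgeR, DESeq2 and limma-voom called none between breeds or between muscle and liver, and 1, HOXC10 in muscle over liver, had an unadjusted edgeR p under 0.05.

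Markers of other cell types moved with some of these values. The 8 stromal markers, genes of fibroblasts and their matrix, summed to 20399.8 CPM in Korean native fat and 14029 in Berkshire fat, 5173 CPM in Korean native muscle and 22016 in Berkshire muscle, and 983 CPM in Korean native liver and 1124 in Berkshire liver. None of the 8 was at 0 in any library. Against liver, 7 of the 8 were higher in fat and 6 in muscle by edgeR (13.5% and 17.4% of all genes), among them DCN, a matrix proteoglycan, and COL1A2, a collagen chain. Between the muscle libraries the stromal sum was lower in Korean native, where HOXC6, HOXD9, HOXA7 and HOXA5 were higher and HOXA2 and HOXA3 lower, and the collagens COL3A1 (2773 CPM in Korean native muscle and 14585 in Berkshire muscle) and COL1A2 (717 and 4010.3 CPM) carried that difference. The receptors PDGFRA (116 counts in Korean native muscle and 166 in Berkshire muscle, 26.8 and 30.4 CPM) and PDGFRB (99 and 109 counts, 22.8 and 20.0 CPM) did not differ to that extent. DCN (978 CPM in Korean native muscle and 1954 in Berkshire muscle) and LUM (245 and 579 CPM) were also lower in Korean native muscle. So were PI16 (111 and 327 CPM) and FBN1 (301 and 510.1 CPM). By CPM, only PDGFRB of the 8 was higher in Korean native muscle. The 6 adipocyte markers summed to 381 CPM in Korean native muscle and 902 in Berkshire muscle, and to 11040.1 in Korean native fat and 11729 in Berkshire fat. In muscle, 4 of the 6 (PLIN1, LIPE, CIDEC and FASN) were at least 4-fold lower in Korean native. Of all genes with at least 10 counts in muscle, 2.47% were. PLIN4, the largest part of the sum in Korean native muscle, had 263 CPM there and 282 in Berkshire muscle. The part of these cell types in the HOX values was not tested.

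The 5 endothelial markers summed to 780.1 CPM in Korean native fat, 1059.7 in Berkshire fat, 470.3 in Korean native muscle, 525 in Berkshire muscle, 378 in Korean native liver and 402 in Berkshire liver. PECAM1, a junction protein, carried most of this sum in fat, with 506 and 736 CPM in Korean native and Berkshire fat, while KDR, a growth factor receptor, had its highest levels in liver (151 and 165 CPM in Korean native and Berkshire). Macrophage and leukocyte markers summed to between 41.3 CPM (Korean native muscle) and 502 CPM (Berkshire liver). Nerve markers summed to 46.1 CPM in Korean native muscle and 69.7 in Berkshire muscle, and mesothelial markers to 17.5 CPM in Korean native fat and 5.58 in Berkshire fat. Keratinocyte markers summed to 54.7 CPM in Korean native muscle and 67.0 in Berkshire muscle, and to 13.5 and 12.1 CPM in Korean native and Berkshire fat. In muscle, the mesothelial markers summed to 3.00 CPM in Korean native and 2.75 in Berkshire. Whether these cell types bear on the HOX values was not tested.

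**Figure D4:**
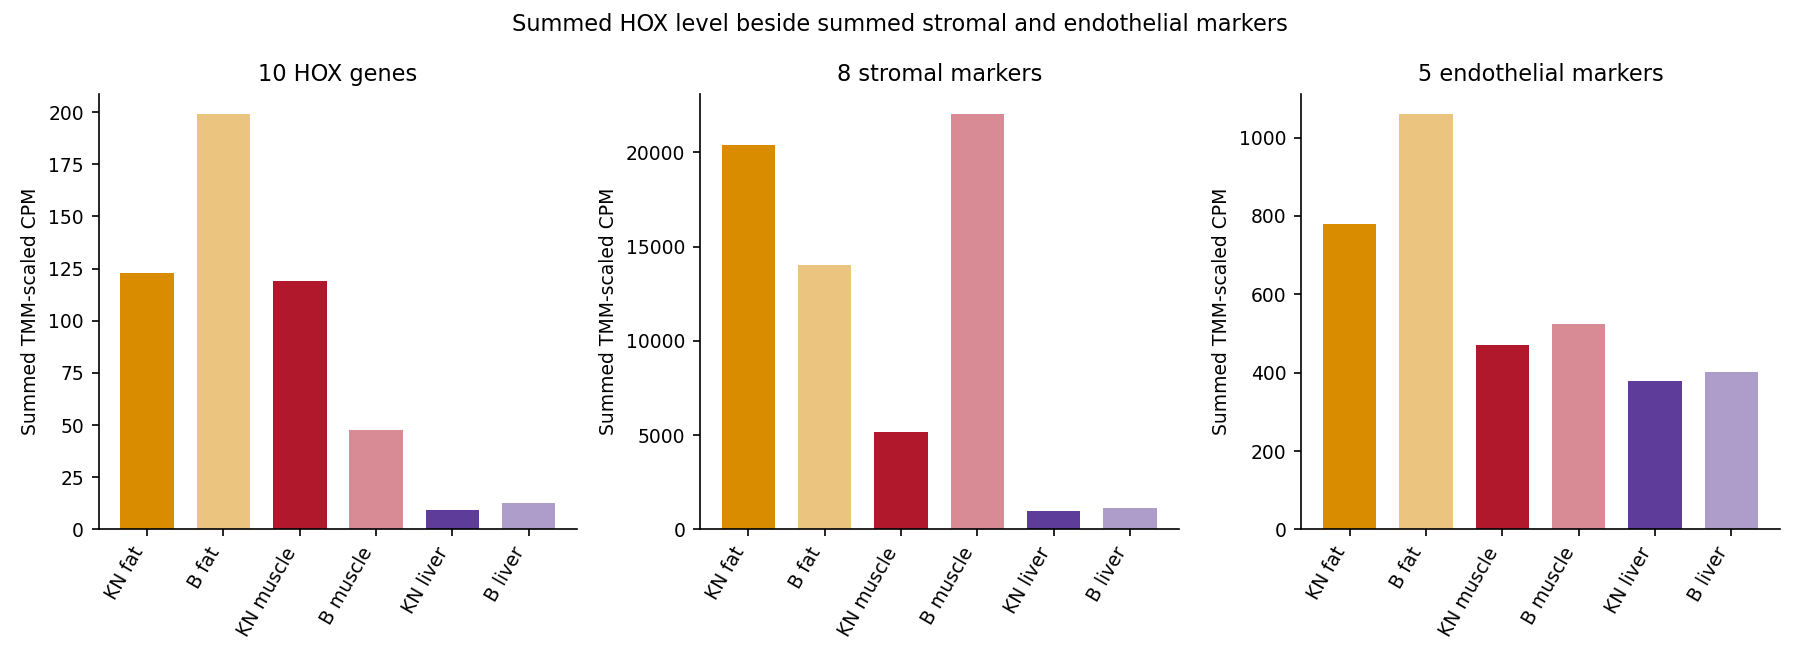
Summed CPM of the 10 HOX genes, of the 8 stromal markers and of the 5 endothelial markers in each library, with the darker bar for Korean native and the lighter bar for Berkshire pigs. The stromal sum is 5173 CPM in Korean native muscle and 22016 in Berkshire muscle, carried by the collagens COL3A1 and COL1A2, and the HOX sum is 119 and 47.8 CPM.

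HOX proteins bind DNA with TALE partners, and their chromatin is held silent by Polycomb and open by Trithorax proteins. None of the 4 TALE cofactor genes tested was called between tissues or breeds by edgeR, DESeq2 or limma-voom, 1 of them (PBX3 in fat over liver) having an unadjusted edgeR p under 0.05, and their summed level ran from 65.1 CPM in Korean native liver to 88.8 in Berkshire liver. Of 23 Polycomb genes, 2 were lower in fat than in muscle (9.95% of all genes), 3 were higher and 2 lower in fat than in liver (13.5% and 15.2%), and 3 were higher and 1 lower in muscle than in liver (17.4% and 18.6%), so none of these counts stands far above its share over all genes. SCMH1, a Polycomb complex member, had 21.3 and 25.3 CPM in Korean native and Berkshire fat, 31.6 and 15.7 CPM in their muscle, and 1.99 and 1.60 CPM in their livers, and was higher in fat (log2 3.72, edgeR adjusted p 0.0015) and in muscle (log2 3.67, adjusted p 0.0012) than in liver. EZH1, a histone methyltransferase of Polycomb, was higher in fat than in liver by a log2 of 1.42 with an edgeR adjusted p of 0.015, a call lost without Berkshire fat or Berkshire liver. EZH2, its paralog of dividing cells and chosen after its values were seen, had 2.77 CPM in Korean native muscle and 11.2 in Berkshire muscle.

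Of 15 Trithorax and histone demethylase genes, 3 were lower in fat than in muscle (9.95% of all genes), 2 lower in fat than in liver (15.2%) and 2 higher in muscle than in liver (17.4%). KMT2A, a histone methyltransferase that keeps HOX genes active in mouse and human cells, had 34.1 and 31.9 CPM in Korean native and Berkshire fat, 90.4 and 76.0 CPM in their muscle, and 68.6 and 74.6 CPM in their livers. Its log2 difference was -1.33 for fat over muscle with an edgeR adjusted p of 0.025 and -1.12 for fat over liver with an adjusted p of 0.027. Both calls were lost by total counts and without either fat library, that of fat over muscle also without Korean native muscle, and that of fat over liver also without either liver library. Between breeds, edgeR, DESeq2 and limma-voom called 0 of the Polycomb and 0 of the Trithorax genes, and 0 of either had an unadjusted edgeR p under 0.05. The median log2 difference over all genes tested was 0.05 for fat over muscle, -0.06 for fat over liver and 0.01 for muscle over liver, against 0.03, -0.04 and 0.08 for the Polycomb genes and -0.51, 0.04 and 0.36 for the Trithorax genes.

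Retinoic acid, made from vitamin A, switches on low-numbered HOX genes in the embryo. Of 13 genes of its pathway tested, 3 were higher and 1 lower in fat than in muscle (6.43% and 9.95% of all genes), 5 higher and 2 lower in fat than in liver (13.5% and 15.2%), and 4 higher and 2 lower in muscle than in liver (17.4% and 18.6%), with median log2 differences of 0.93, 0.55 and 0.16. ALDH1A2, the enzyme that makes retinoic acid in the embryonic trunk, had 87.5 CPM in Korean native fat and 16.6 in Berkshire fat, 11.5 CPM in Korean native muscle and 28.2 in Berkshire muscle, and 3.15 CPM in Korean native liver and 5.20 in Berkshire liver. Korean native fat stood above the other libraries, and the call for fat over liver (log2 3.56, edgeR adjusted p 0.027) was lost without it and without Korean native liver. ALDH1A1, a related enzyme abundant in liver, had 56.5 and 55.3 CPM in Korean native and Berkshire fat, 6.46 and 17.8 CPM in their muscle, and 1038 and 924 CPM in their livers.

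Other transcription factors mark position or layer of the mesoderm. Of 20 tested, 12 were higher and 5 lower in fat than in liver (13.5% and 15.2% of all genes), with a median log2 difference of 4.29. In muscle against liver 8 were higher and 4 lower (17.4% and 18.6% of all genes), with a median of 3.76, and in fat against muscle 5 were higher and 3 lower (6.43% and 9.95% of all genes), with a median of 0.59. TBX18, a T-box factor of the somites and body wall, had 33.0 and 41.4 CPM in Korean native and Berkshire fat, 10.4 and 31.8 CPM in their muscle, and 0.829 and 1.00 CPM in their livers, a log2 difference of fat over liver of 5.35 with an edgeR adjusted p of 0.00055. MEOX2, a homeobox factor of the somites, had 64.3 and 52.3 CPM in Korean native and Berkshire fat, 29.8 and 57.3 CPM in their muscle, and 2.32 and 3.00 CPM in their livers, with a log2 difference of fat over liver of 4.48 and an edgeR adjusted p of 0.00061. IRX3, an Iroquois homeobox factor, was higher in muscle than in liver by a log2 of 6.57 with an edgeR adjusted p of 0.00067, from 43.4 CPM in Korean native muscle and 155 in Berkshire muscle against 1.16 and 0.600 CPM in the livers.

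Within a tissue, 4 of these position factors differed 4-fold between the breeds. In fat, TBX5, a factor of the heart and forelimb in mouse, had 129 counts in Korean native and 17 in Berkshire, and OSR2, a factor of palate and limb mesenchyme in mouse, had 356 and 56 counts. WT1, a factor of the mesothelium and of visceral fat in mouse, had 2 counts in Korean native fat and 55 in Berkshire fat. The other 2 mesothelial markers with an ID, KRT8 and KRT18, went the other way, at least 4-fold higher in Korean native fat. TBX5, OSR2 and WT1 were the 3 of 17 position factors with at least 10 counts in fat that differed 4-fold. Of all such genes, 1.83% were that much higher in Korean native fat and 1.53% lower. In muscle SHOX2, a limb factor, was the 1 of 15, with 4 counts in Korean native and 27 in Berkshire, where 2.47% of all such genes were that much lower. ZIC1, a zinc finger factor of the dorsal somites in mouse, had 142 counts in Korean native muscle and 155 in Berkshire muscle and none in the other 4 libraries. Over the 3 tissues no position factor was called between breeds by edgeR, DESeq2 or limma-voom, with TBX5 and OSR2 the 2 under an unadjusted edgeR p of 0.05. TBX5, OSR2, WT1, SHOX2 and ZIC1 were chosen after their values were seen.

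Lineage factors differed between the tissues. Of 8 muscle lineage factors tested, 7 were lower in fat than in muscle (9.95% of all genes) and 8 higher in muscle than in liver (17.4%), while 4 were higher in fat than in liver (13.5%). MYF6, a factor of muscle fibres, had 431 counts in Korean native muscle and 1052 in Berkshire muscle and none elsewhere. Of 13 liver lineage factors, 12 were lower in fat and 13 lower in muscle than in liver (15.2% and 18.6% of all genes). HNF4A, the central liver regulator, stood at 0.394 and 0.392 CPM in Korean native and Berkshire fat, 0.231 and 0 CPM in their muscle and 811 and 949 CPM in their livers. Between breeds, 0 genes of either list were called by edgeR, DESeq2 or limma-voom, and 0 had an unadjusted edgeR p under 0.05.

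The genes whose pattern was most like that of the HOX sum were ranked by Pearson's r of log2(CPM + 0.5) over the 6 libraries, among 7494 genes with a mean of at least 5 CPM. VASH1 (r = 0.999), CYSLTR2 (r = 0.996) and C8orf58 (r = 0.994) came first, followed by BSCL2, TMEM50A and SLC39A13, and 70 genes had an r over 0.95. CYSLTR2, a leukotriene receptor, had 13.5 and 15.3 CPM in Korean native and Berkshire fat, 11.5 and 8.42 CPM in their muscle, and 4.31 and 5.00 CPM in their livers, a far narrower range than that of the HOX sum. For HOXA5 alone the first were JOSD2 (r = 0.992), SCARF1 (r = 0.980) and PGRMC2 (r = 0.978), then AKT2, TMEM231 and PPP2R5A, and 13 genes passed 0.95. For HOXD9 they were RPS9 (r = 0.995), PDGFA (r = 0.995) and RPS18 (r = 0.994), then MARCHF2, MSL1 and RHBDD3, and 21 genes passed 0.95. PDGFA, a growth factor, had 6.80 and 7.64 CPM in Korean native and Berkshire fat, 10.4 and 2.75 CPM in their muscle, and 1.99 and 1.60 CPM in their livers. These values share libraries and scaling with the HOX values and rest on 6 points from 3 tissues, so they are a description only.

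Neighbouring HOX genes limit what a count stands for. In RefSeq's pig annotation (Sscrofa11.1, not the build of the counts), the HOXA3 gene model runs over HOXA4, HOXA5 and HOXA6, and that of HOXD9 over HOXD10 and HOXD11, while HOXA4, HOXA6 and HOXD11 matched no ID here. Whether strand was used in counting is not stated, and reads of overlapping or antisense transcripts within a cluster cannot then be told apart. By their counts, HOXA3 was lower and HOXA5 higher in Korean native than in Berkshire muscle. The part of overlapping transcripts in these counts was not tested.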

How the data were processed

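Per the labels' protocols, flash-frozen tissue was extracted with Trizol and made into Illumina TruSeq RNA libraries. Per the submitters' processing notes, TopHat, HTSeq 0.5.3p3 and the build Sscrofa10.2 were used. The deposited values are raw counts per Ensembl gene ID. The annotation release, the strand setting and the counting mode were not given in the sources used here. The 5 closing entries that name no gene were left out: reads on no gene made up 45.9% to 52.5% of a library, ambiguous reads 0.354% to 0.809% and reads without a unique alignment 14.1% to 20.8%. The supplied table named 11804 of 25322 IDs, and 11 of 39 HOX symbols matched none and were not analysed here.

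An additive model of tissue and breed was fitted over all 6 libraries with edgeR 4.0.16 (R 4.3.3, limma 3.58.1; TMM, filterByExpr, quasi-likelihood test, two-sided, Benjamini-Hochberg adjusted p under 0.05). It kept 13810 genes, has 2 residual degrees of freedom and gave a biological coefficient of variation of 29.5%. Each SE was derived as the absolute log2 difference divided by the root of its F statistic. The procedure was tested on simulated data with a common spread for all genes and no breed difference that changes between tissues. That test does not bear on the HOX values. Ratios within a tissue are of scaled counts, with exact intervals from scipy 1.17.1, and 4-fold counts need at least 10 counts in 1 library. Alternatives were DESeq2 1.42.0, limma-voom, total counts, no filter, a model without the other factor, and each library left out.

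The HOX genes and all gene lists were chosen with earlier results of these data known. Named beside them are every other HOX ID, up to 4 called genes of highest mean CPM in each list, and the 6 genes most like each pattern. Not every such gene is printed. Whether the 3 pigs of each breed in the series title are animals or tissue samples is unclear, and p-values measure only the spread among these libraries.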

Additional observations from a re-analysis of the deposited data

Results flagged for a closer look

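HOXA5 had opposite breed ratios in muscle and in the other tissues. The ratio of Korean native to Berkshire was 10.4 (5.56 to 21.6) in muscle, 0.449 (0.407 to 0.496) in fat and 0.324 (0.132 to 0.727) in liver, and the intervals lie on opposite sides of 1. HOXC6 had a ratio of fat to muscle of 0.271 (0.219 to 0.336) in Korean native pigs and 13.8 (5.77 to 43.2) in Berkshire pigs. HOXD9 had 0.398 (0.270 to 0.587) in Korean native pigs and 6.55 (2.40 to 25.0) in Berkshire pigs. These genes stand out because, with TMM, the single libraries of one group move one way and those of the other group the opposite way beyond counting error. By total counts the Korean native ratio of HOXD9 was 0.822, nearer to 1 and without an interval of its own. The differences were not tested, since each breed and tissue has 1 library.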

How the results depend on the processing

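No paired analysis was possible because each breed and tissue has 1 library, whose replicate number is only a name; breed and tissue themselves are both terms of the model. The 2262 calls of fat over muscle became 6020 by total counts, a scaling that moved the median log2 difference of all genes to 0.98 from 0.05, and 866 to 2652 with 1 library left out (866 if Korean native fat was dropped, 1010 for Korean native muscle, 1475 for Berkshire fat). The 3959 calls of fat over liver became 6955 by total counts (median 0.94) and 2452 to 4823 with 1 library left out, the lowest without Korean native fat. The 4964 calls of muscle over liver stayed between 3346 and 5271 in all 11 settings. The 15 breed calls became 94 with DESeq2, 87 without the filter, 0 without the tissue term (edgeR, 114 at an unadjusted p under 0.05) and 16 to 83 with 1 library left out (dropping Korean native fat gave 42, Berkshire fat 46, Korean native muscle 31, Korean native liver 83 and Berkshire liver 72). The summed HOX level of fat, 161 CPM, was 253 by total counts and 68.2 without HOXA5, and that of liver, 11.0 CPM, was 7.91 without HOXA5, a setting chosen after seeing the data. With 1 library left out, the sums are those of the single library that remains (123 to 199 CPM in fat, 47.8 to 119 in muscle, 9.11 to 12.8 in liver). Among the 8 tested HOX genes, the sign of the log2 difference of fat over muscle changed in 8 of 88 alternative values (HOXA3, HOXC6 and HOXD9), that of fat over liver in 0 of 88, that of muscle over liver in 1 (HOXA5 without Korean native muscle) and that of Korean native over Berkshire in 11 (HOXA5, HOXD3 and HOXD4). Apart from what the settings themselves remove, the cause of these changes was not tested. Liver holds 55 reads on the 10 genes in Korean native and 64 in Berkshire, which limits breed ratios there to wide intervals.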
